A study of Homo sapiens with 31 samples.

Results

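ERG, FLI1, ETV6 and ELF1 are 4 members of the ETS family of transcription factors, and the peaks of EVI1 and CTBP2 at these genes were located in MUTZ3 and MOLM1 leukemia cells. The genes were chosen by name, and every peak that touched the gene record or the 50 kb on either side of it was taken. The genes are 4 of 20136 protein-coding genes, and their windows held 726 of the 533140 peaks in 13 deposited peak lists. Merging peaks that shared at least 1 bp gave 152 sites at the 4 genes, out of 131683 sites in the whole genome. ERG had 45 sites, FLI1 47, ETV6 43 and ELF1 17. A site is named below by its gene and its order along the gene in the direction of transcription, so that FLI1-s2 is the second FLI1 site.

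ETS factors bind DNA through a winged helix-turn-helix domain that reads a GGAA core. ERG and FLI1 are close relatives that maintain hematopoietic stem cells and the endothelium, ETV6 is a repressor needed for blood stem cells in the adult marrow and is often broken by leukemia translocations, and ELF1 is expressed widely in blood cells. EVI1 is a zinc finger transcription factor whose high expression marks a group of myeloid leukemias with poor outcome, and CTBP2 is a corepressor without a DNA-binding domain of its own that docks on EVI1 through a short PLDLS peptide motif. Expression of the 4 genes was not measured in the files used here, so nothing below says how active they were.

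MUTZ3 is a human cell line labelled as acute myelomonocytic leukemia, and MOLM1 is labelled as chronic myeloid leukemia in blast crisis. EVI1 and CTBP2 were each mapped once in unmodified MUTZ3 cells, and CTBP2 was mapped once in MOLM1 cells that carried a doxycycline-inducible shRNA against EVI1 and received no doxycycline. CTBP2 was mapped in 2 libraries of MUTZ3 cells transduced with a retrovirus encoding 4xPLASS, a peptide whose CTBP-binding motif is mutated. The main comparison used MUTZ3 cells with a doxycycline-inducible 4xPLDLS construct, which encodes 4 copies of the CTBP-binding peptide. These cells were grown for 72 hours with doxycycline (dox) or without it (untreated), and each target was mapped in 2 libraries of each arm, all from cells fixed with DSG before formaldehyde. All untreated inducible libraries carry the construct too. The labels number the libraries of an arm but do not say that they came from separate cultures, so the spread between them may be technical.

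The lists ranged from 6688 peaks (4xPLASS replicate 1) to 72214 peaks (EVI1 untreated replicate 2), and read depth is unknown because the lists hold no counts. The 2 CTBP2 untreated lists held 62232 and 56526 peaks and the 2 CTBP2 dox lists 24588 and 23878. The EVI1 lists of the same cells held 51389 and 72214 peaks untreated and 53806 and 47599 with dox. The shorter dox lists of CTBP2 touch every comparison of peak numbers below, and the part that depth or enrichment had in them was not tested. Fold enrichment is the fold that the peak caller gave for the ChIP signal over its matched background at the peak summit, and rank is the place of a peak in its own list by fold enrichment, with rank 1 the strongest. By their labels the 4xPLASS and MOLM1 CTBP2 libraries differ from the unmodified CTBP2 library in crosslink, while a sample list of the study gives them the same single crosslink. The crosslink of these libraries is thus uncertain, and if it differed it cannot be told apart from the cells.

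The sites that most libraries shared stood at a few places in each gene. In all 13 lists together, 6 sites were called each time, 2 at FLI1, 3 at ETV6 and 1 at ELF1, which was 6 of 152 sites against 2.33% of all sites in the genome. At the other end, 53 of the 152 sites were called in 1 list only, 22 of them in MOLM1, whose list was long at 64569 peaks. The share of sites called in 1 list only was not computed over the genome, so these counts are a description only. The sequences of 5 of these 6 shared sites, with the strongest CTBP2 site of ERG in unmodified MUTZ3 and the strongest ELF1 site, are shown because the results below turn on them. Each is the 201 bases centred on the EVI1 summit in unmodified MUTZ3, read 5′ to 3′ on the plus strand of GRCh37, in lower case. Capitals mark exact matches, on either strand, to 1 of 7 short motifs. The core read by GATA-family factors was searched as GATAAG. The sites of the EVI1 zinc fingers were searched as GACAAGATA and GAAGATGAG. The GGAA-containing sequence that ETS factors read was searched in the form CGGAAG. The form AGGAAG of the same family was searched too. The site known for RUNX factors was searched as TGTGGT. An E-box of the kind that ZEB repressors read was searched as CACCTG. The second ETS form was added after the sequences had been read.
ERG-s21, chr21:39860894-39861094: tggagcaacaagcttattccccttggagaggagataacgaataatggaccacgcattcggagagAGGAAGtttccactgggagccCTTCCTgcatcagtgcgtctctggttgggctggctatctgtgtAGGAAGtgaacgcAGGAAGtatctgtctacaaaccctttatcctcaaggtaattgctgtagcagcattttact
FLI1-s2, chr11:128516058-128516258: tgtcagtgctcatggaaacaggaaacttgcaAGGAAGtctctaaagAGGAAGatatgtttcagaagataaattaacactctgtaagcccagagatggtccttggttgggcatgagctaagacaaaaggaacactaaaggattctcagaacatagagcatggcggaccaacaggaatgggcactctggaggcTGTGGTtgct
ETV6-s25, chr12:11919553-11919753: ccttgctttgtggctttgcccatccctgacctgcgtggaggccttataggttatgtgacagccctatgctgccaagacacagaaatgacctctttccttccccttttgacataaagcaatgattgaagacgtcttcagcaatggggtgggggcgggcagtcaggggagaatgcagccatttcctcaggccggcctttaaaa
ETV6-s29, chr12:11951942-11952142: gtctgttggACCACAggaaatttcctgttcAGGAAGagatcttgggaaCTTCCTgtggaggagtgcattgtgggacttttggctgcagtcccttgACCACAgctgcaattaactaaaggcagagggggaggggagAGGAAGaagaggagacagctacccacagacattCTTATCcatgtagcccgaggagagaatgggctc
ETV6-s30, chr12:11954754-11954954: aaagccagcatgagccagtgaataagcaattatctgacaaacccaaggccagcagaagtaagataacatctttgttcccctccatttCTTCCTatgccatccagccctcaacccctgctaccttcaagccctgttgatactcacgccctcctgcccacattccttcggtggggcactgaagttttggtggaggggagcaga
ELF1-s10, chr13:41579054-41579254: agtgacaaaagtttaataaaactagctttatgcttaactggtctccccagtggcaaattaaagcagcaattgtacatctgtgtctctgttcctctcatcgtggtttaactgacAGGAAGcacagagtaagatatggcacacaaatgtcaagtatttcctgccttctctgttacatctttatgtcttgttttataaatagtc
ELF1-s2, chr13:41634396-41634596: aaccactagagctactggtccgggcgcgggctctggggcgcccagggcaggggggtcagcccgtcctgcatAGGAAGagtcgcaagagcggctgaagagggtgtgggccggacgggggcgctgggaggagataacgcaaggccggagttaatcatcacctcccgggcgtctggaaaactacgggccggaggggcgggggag

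AGGAAG was the motif that recurred most in the sequences shown. ERG-s21 held 4 matches, at 36 and 15 bases before the summit and 28 and 41 bases after it. ETV6-s29 held 3, beside 2 TGTGGT matches and 1 GATAAG match, and FLI1-s2 held 2. ETV6-s25 held none of the 7 motifs. In the 100 bp either side of all summits at the 4 genes, AGGAAG occurred at 16 of 30 EVI1 peaks (53.3%, 95% Wilson interval 36.1 to 69.8) and 23 of 39 CTBP2 peaks (59.0%, 43.4 to 72.9) of unmodified MUTZ3. The share among all peaks of the same lists was 50.0% and 55.3%, inside both intervals. Over the 13 lists the share at the 4 genes ran from 35.4 to 93.3%, against 36.8 to 56.3% of whole lists, and was the higher one in 11 of 13. The 93.3% is 14 of 15 peaks of 4xPLASS replicate 1. AGGAAG was picked from sequences at these genes and the lists share sites, so this comparison is no test of enrichment. The first ETS form, CGGAAG, occurred at 5.81 to 14.3% of the peaks at the 4 genes, against 10.1 to 15.7% of whole lists. Its share was the higher one at the 4 genes in 2 of 13 lists. GATAAG was found at 8.86 to 13.3% of the member peaks in the 13 lists, against 4.15 to 9.65% of all peaks, and was above the share of the whole list in 13 of 13 lists, which share sites and are not independent. TGTGGT occurred at 10 of 30 EVI1 peaks of unmodified MUTZ3 (33.3%, 19.2 to 51.2) against 23% of that list. That was its highest share at the 4 genes. Over the 13 lists it ran from 15.9 to 33.3%, against 17.1 to 24.3% of whole lists, and was the higher one in 6 of 13. CACCTG was less frequent at the 4 genes than in the whole list in all 13 lists, at 6.67 to 26.6% against 15.2 to 30.3%. The median GC content around the summits was also lower at the 4 genes in every list. In unmodified MUTZ3 it was 51.0 against 55.2% for EVI1 and 52.2 against 53.2% for CTBP2. The part that base composition had in the GATAAG and CACCTG shares was not tested. Neither GACAAGATA nor GAAGATGAG was present in the 100 bp either side of any summit at the 4 genes. They occurred at no more than 0.599% and 0.959% of the peaks of any list. These matches describe letters and do not show that a factor was bound.

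**Figure D1:**
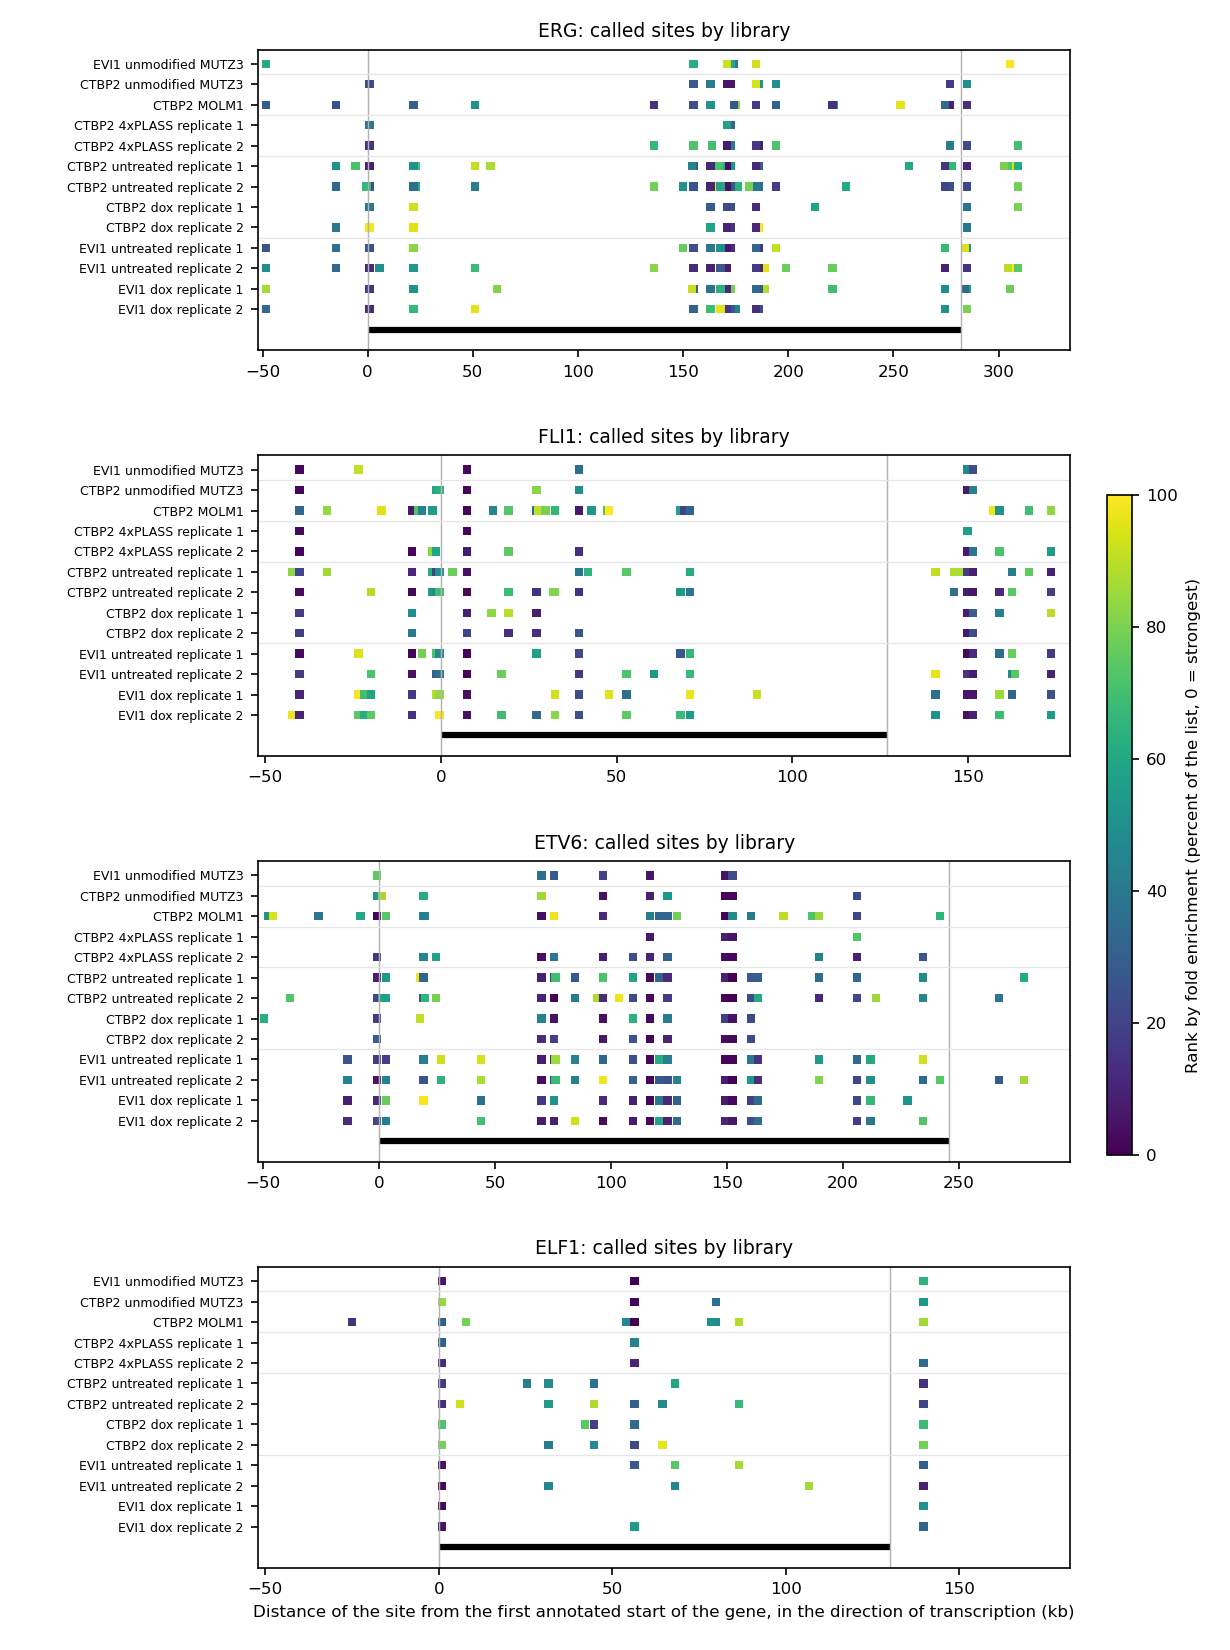
Called sites at the 4 genes in each of the 13 libraries (rows) against the distance from the first annotated start of the gene in kb, in the direction of transcription. Squares are coloured by the rank of the site's strongest peak as a percent of its list, dark being strongest, and the black bar is the gene. Columns of dark squares stand 7.42 kb into FLI1, and 117, 149 and 152 kb into ETV6, and stretches without any site span 61.6 to 136 kb in ERG and 90.0 to 141 kb in FLI1.

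Most sites lay inside introns. Of the 152 sites, 94 were placed in introns, 13 within 1 kb of an annotated start of the gene (called promoter sites here), 24 in the 5′ flank, 20 in the 3′ flank and 1 in an exon. The gene records fill most of these windows, with 282 of 382 kb at ERG, 127 of 227 at FLI1, 246 of 346 at ETV6 and 130 of 230 at ELF1. The same shares were not computed over the genome, so the placement is a description only. The map of sites by library shows that they were not spread evenly. No list had a peak in a stretch of 74.2 kb of ERG, from 61.6 to 136 kb after its first start. A stretch of 50.6 kb in and behind FLI1 was also empty, from 90.0 to 141 kb, while the gene ends at 127 kb.

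At FLI1 (ENSG00000151702, chr11:128556430-128683162, plus strand) the highest-ranked peaks of EVI1 and CTBP2 in unmodified MUTZ3 lay at the start of the canonical transcript, 7.54 kb after the first start. FLI1-s16 (chr11:128559974-128566337) joins several peaks there, and its strongest EVI1 peak in unmodified MUTZ3 had a summit 56 bp before that start. The fold enrichment of that peak was 21.3 (rank 421 of 21505), that of the CTBP2 peak was 17.0 (rank 262 of 16836), and that of the MOLM1 CTBP2 peak was 24.3 (rank 1426 of 64569). MOLM1 had a further peak of like strength (fold 25.4, rank 1203) further downstream, with its summit 73 bp before the start of SENCR, a long noncoding RNA gene on the opposite strand (chr11:128561559-128565918). At the SENCR start the unmodified MUTZ3 lists had only weaker peaks, with fold 4.94 for CTBP2 and 5.58 for EVI1. The 4xPLASS peaks at the canonical start had fold 13.9 and 10.7, and in 4xPLASS replicate 2 FLI1-s2 (19.8) and FLI1-s8 (17.7) were higher. FLI1-s8 (chr11:128547874-128548451), 8.33 kb upstream of the first start, was also the highest FLI1 site for CTBP2 in untreated replicate 2 (20.1). It is named for these values and was not called in unmodified MUTZ3. In both CTBP2 dox libraries the highest FLI1 site was FLI1-s40, with fold 9.02 and 10.6. The merged site FLI1-s16 covers both the canonical FLI1 start and the SENCR start, so it cannot be given to one of these genes.

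FLI1-s2 (chr11:128515339-128516557), 40.3 kb upstream of the first start, was the other FLI1 site called in all 13 lists. Its fold in unmodified MUTZ3 was 20.4 for EVI1 (rank 469) and 16 for CTBP2 (rank 326), while MOLM1 gave 8.42 (rank 21055). It is a strong site in MUTZ3 and a middling one in MOLM1. FLI1-s40 (chr11:128705344-128706612), behind the gene and at the 3′ end of the potassium channel gene KCNJ1, was called in all 12 MUTZ3 lists and not in MOLM1. It is named for this pattern, after its values were seen. Its CTBP2 fold was 10.6 (rank 1227) in unmodified MUTZ3.

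The promoter at the first FLI1 start was weaker. FLI1-s14 (chr11:128555638-128556330, 403 bp before that start) had a CTBP2 fold of 4.79 in unmodified MUTZ3 and was called in 7 lists. The only other promoter site of FLI1, FLI1-s35 (chr11:128627029-128627691), lay 755 bp before an internal start in intron 1 and was called in 7 lists, including MOLM1 (fold 8.52) but neither unmodified MUTZ3 list.

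At ETV6 (ENSG00000139083, chr12:11802608-12048311, plus strand) the strongest sites lay in intron 2. ETV6-s29 (chr12:11951697-11952462) was the best ETV6 site in 3 lists, with a CTBP2 fold of 19.8 (rank 137) and an EVI1 fold of 15.6 (rank 1045) in unmodified MUTZ3 and a CTBP2 fold of 29.2 (rank 633) in MOLM1. Just downstream, ETV6-s30 (chr12:11954568-11955390) had the highest CTBP2 values of the 4 genes, with fold 51.1 and 52.1 in the untreated inducible libraries (ranks 56 and 25). The same site had fold 15.2 (rank 378) in unmodified MUTZ3 and 6.78 (rank 31124) in MOLM1. ETV6-s25 (chr12:11918505-11919986), also in intron 2, was called in all 13 lists, with an EVI1 fold of 14.7 (rank 1228) and a CTBP2 fold of 9.82 (rank 1481) in unmodified MUTZ3. Its MOLM1 fold was 7.32 (rank 27044). The ETV6 promoter, ETV6-s8 (chr12:11801500-11803454), showed the opposite order between cell lines. Its CTBP2 fold was 27.8 (rank 817) in MOLM1 and 5.16 (rank 8947) in unmodified MUTZ3.

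At ELF1 (ENSG00000120690, chr13:41506060-41635576, minus strand) there were fewer sites, but 1 of them ranked high in 3 lists. ELF1-s10 (chr13:41578965-41579631), in intron 1, had an EVI1 fold of 31.7 (rank 104 of 21505) and a CTBP2 fold of 16.6 (rank 283) in unmodified MUTZ3, and a CTBP2 fold of 40.2 (rank 112 of 64569) in MOLM1. The inducible MUTZ3 libraries did not show it at that strength. There EVI1 was called in untreated replicate 1 (fold 8.33, rank 14362) and dox replicate 2 (5.43) only, and CTBP2 in untreated replicate 2 (7.11) and both dox libraries (5.52 and 7.28). The unmodified and inducible cells differ in crosslink, construct and culture, which cannot be told apart here.

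ELF1-s2 (chr13:41634065-41636326) was called in all 13 lists and covers the first ELF1 start and the start of WBP4, a splicing factor gene that begins on the other strand at position 41635645. Its best summit lay 1021 bp inside ELF1, just past the 1 kb limit, so it was placed in an intron. Its strongest EVI1 peak in unmodified MUTZ3 had fold 14.2, with the summit at position 41634496. The CTBP2 peak there had fold 4.05, with the summit at position 41635474, and did not overlap that EVI1 peak. At ELF1-s14 (chr13:41555587-41555750), the only ELF1 promoter site called in 2 or more lists, CTBP2 was called in unmodified MUTZ3 (5.95) and MOLM1 (6.75).

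At ERG (ENSG00000157554, chr21:39751949-40033704, minus strand) no site was called in all 13 lists. The most were 12 lists, at ERG-s26, which 4xPLASS replicate 1 lacked, and at ERG-s20 (chr21:39862359-39863016), which MOLM1 lacked, and they are named for that. ERG-s20 and ERG-s21 (chr21:39860807-39861197) stood in intron 1 of the canonical transcript, 7.66 and 9.38 kb after the canonical start. Their CTBP2 folds in unmodified MUTZ3 were 11.2 (rank 1030) and 11.5 (rank 950), and neither was called in MOLM1. EVI1 was weak at ERG in unmodified MUTZ3. Its best site there was ERG-s22 (chr21:39859427-39859704), at fold 6.29 and rank 9180 of 21505, and EVI1 at ERG-s20 had fold 3.73. The strongest ERG site in MOLM1 was ERG-s38 (chr21:39756695-39756948, intron 9), at fold 15.1 (rank 6148), which in unmodified MUTZ3 had a CTBP2 fold of 7.67 (rank 2986) and no EVI1 peak.

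Both main ERG promoters carried CTBP2. ERG-s5 (chr21:40032045-40033827), at the first start, had a CTBP2 fold of 6.98 in unmodified MUTZ3 and was called in 11 lists, but not in MOLM1 and not for EVI1 in unmodified MUTZ3. ERG-s16 (chr21:39870347-39870879), at the canonical start 163 kb further on, had a CTBP2 fold of 5.68 in unmodified MUTZ3 and 6.53 in MOLM1, and EVI1 was again called in the inducible libraries only. A weak site just inside the canonical start, ERG-s17 (chr21:39869689-39869992), was called for CTBP2 in 4xPLASS replicate 2 (4.43) and untreated replicate 2 (2.92).

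EVI1 and CTBP2 were next compared in unmodified MUTZ3, where each was mapped once and no replicate error can be given. Of the 30 EVI1 peaks at the 4 genes, 22 overlapped a CTBP2 peak (73.3%, 95% Wilson interval 55.6 to 85.8), against 43.0% of all EVI1 peaks. In the other direction, 22 of 39 CTBP2 peaks overlapped an EVI1 peak (56.4%, 41.0 to 70.7), against 54.5% of all CTBP2 peaks. FLI1 had the most, with 9 of 10 EVI1 peaks and 9 of 13 CTBP2 peaks overlapping. Peaks of 1 merged site count separately here, and FLI1-s16 held 4 of these EVI1 and 5 of these CTBP2 peaks, and FLI1-s26 2 of each. ETV6 had 6 of 8 EVI1 and 6 of 10 CTBP2 peaks, ERG 5 of 8 and 5 of 12, and ELF1 2 of 4 and 2 of 4. In these pairs the summits were a median of 33.0 bp apart, and 13 of 22 lay within 50 bp, as did 57.6% of all overlapping pairs in the genome. In the untreated inducible cells, 44 of the 54 CTBP2 sites called in both libraries held an EVI1 site called in both, against 82.5% of CTBP2 sites in the genome. The intervals cover counting error only.

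MOLM1 cells were compared to ask how far the CTBP2 sites of these genes extend to a second EVI1-expressing line. Of the 39 CTBP2 peaks of unmodified MUTZ3, 27 overlapped a MOLM1 peak (69.2%, 53.6 to 81.4), against 70.2% of all CTBP2 peaks. ETV6 kept 9 of 10 and ELF1 4 of 4, while FLI1 kept 7 of 13 and ERG 7 of 12. The MOLM1 list was longer, and 27 of its 86 peaks at these genes overlapped an unmodified MUTZ3 CTBP2 peak, against 18.7% of all MOLM1 peaks. FLI1 had the most MOLM1 peaks, at 31, of which 12 overlapped no MUTZ3 CTBP2 list of any kind. The strongest sites called in MOLM1 alone were ELF1-s1, 25.0 kb upstream of ELF1 (fold 12.7, rank 9191), and FLI1-s34 in intron 1 of FLI1 (fold 11, rank 12640), chosen here by that rank. With 1 library a line, differences between the lines have no replicate check.

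The retroviral 4xPLASS cells gave 15 and 50 CTBP2 peaks at the 4 genes from lists of 6688 and 31310 peaks. Called in both were 13 sites, 3 at ERG, 4 at FLI1, 4 at ETV6 and 2 at ELF1, and 12 of the 13 overlapped a CTBP2 peak of unmodified MUTZ3, as did 88.2% of such sites in the genome. The exception was ELF1-s2. Its 4xPLASS peaks did not overlap its unmodified CTBP2 peak, although merging by shared bases places all of them in 1 site.

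Induction of 4xPLDLS was examined to see whether CTBP2 and EVI1 leave these genes when the CTBP-binding peptide is expressed. In the 4 windows together there were 79 and 83 CTBP2 peaks in the untreated libraries and 42 and 40 in the dox libraries. The groups did not overlap, and the log2 ratio of the means was -0.98, or 0.506 of the untreated number. With 2 libraries an arm, the two-sided exact permutation p of 0.333 is the smallest that can be reached. EVI1 peaks numbered 63 and 74 untreated and 63 and 62 with dox, a log2 ratio of -0.13 (exact permutation p = 0.667). When the 4 CTBP2 lists were cut to an equal number of strongest peaks, the numbers became 34 and 43 untreated and 42 and 40 with dox. The log2 ratio was then 0.09 (exact permutation p = 1.00). Such a cut removes any loss common to the whole list, so it cannot show whether CTBP2 was lost. It compares only the part of each list that lay at these genes. The 4 genes held 0.127 and 0.147% of the untreated CTBP2 lists and 0.171 and 0.168% of the dox lists.

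**Figure D2:**
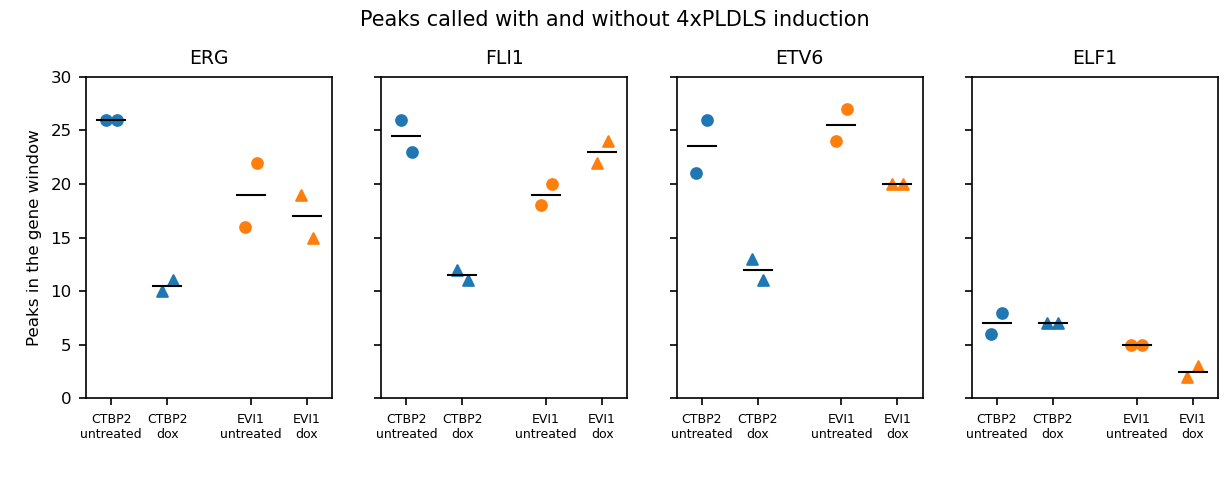
Peaks in the window of each gene in the 2 untreated libraries (circles) and the 2 dox libraries (triangles) of CTBP2 (blue) and EVI1 (orange), with lines at the means. CTBP2 numbers with dox sit below both untreated libraries at ERG, FLI1 and ETV6 and between them at ELF1, and EVI1 numbers with dox sit above both untreated libraries at FLI1.

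The genes differed. At ERG, CTBP2 had 26 and 26 peaks untreated and 10 and 11 with dox, a log2 ratio of -1.31. At FLI1 the numbers were 26 and 23 against 12 and 11, a log2 ratio of -1.09. At ETV6 they were 21 and 26 against 13 and 11, a log2 ratio of -0.97. ELF1 had 6 and 8 peaks untreated and 7 and 7 with dox, so its groups overlapped. Fewer CTBP2 peaks in both dox than in both untreated libraries was thus seen at 3 of the 4 genes, and at 72.3% of all protein-coding gene windows that held a CTBP2 peak in these libraries. No exact permutation test of a single gene could go below p = 0.333.

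EVI1 peaks at FLI1 went the other way, with 18 and 20 untreated and 22 and 24 with dox, a log2 ratio of 0.28. More EVI1 peaks in both dox libraries were found at 3.89% of gene windows. This direction was lost when only peaks with a -log10 q of at least 5 were counted (16 and 17 against 15 and 16), so it rests on weak peaks. At ETV6, EVI1 had 24 and 27 peaks untreated and 20 and 20 with dox, and at ELF1 5 and 5 against 2 and 3. Fewer EVI1 peaks in both dox libraries were found at 17.0% of gene windows. At ERG the EVI1 groups overlapped, with 16 and 22 against 19 and 15.

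Sites rather than peaks gave the fate of binding at each place. A site was taken when both untreated libraries called it, and was called kept when a dox peak overlapped it. CTBP2 had 54 such sites at the 4 genes, of which 53.7 and 61.1% were kept in the dox libraries, a mean of 57.4% ± 5.24 (SD, n = 2), against 48.7% ± 3.03 over the genome. Over sites called in either untreated library the CTBP2 mean was 33.5%. EVI1 had 49 sites, of which 85.7 and 81.6% were kept, a mean of 83.7% ± 2.89 (SD, n = 2), against 84.5% ± 5.20 over the genome. EVI1 was thus kept more often than CTBP2 at the 4 genes by 26.3 percentage points, and the shares did not overlap (exact permutation p = 0.333, the smallest possible). With lists of equal size the difference was 7.48 points, and without 1 library at a time it ran from 10.8 (without EVI1 untreated replicate 1) to 43.2 (without CTBP2 untreated replicate 2). Without an untreated library the share was taken over all peaks of the other, which is a different measure.

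By site, 27 of the 54 CTBP2 sites were kept in both dox libraries (38.4% of sites in the genome), 19 in neither (41.0% in the genome) and 8 in only 1. ELF1 kept 3 of its 4 in both, ETV6 10 of 17, ERG 8 of 17 and FLI1 6 of 16. For EVI1, 39 of 49 sites were kept in both (78.1% in the genome) and 6 in neither (9.01% in the genome). Of the 19 CTBP2 sites without a dox peak, 13 had held an EVI1 site in the untreated cells (68.7% of such sites in the genome), and 7 had an EVI1 peak in both dox libraries (52.3% in the genome).

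Kept CTBP2 sites were the stronger ones. Their median fold in untreated replicate 1 was 13.3, against 6.18 for the sites kept in neither library. In the strongest quintile of all CTBP2 sites, 14 of the 15 member sites were kept in both dox libraries, and the mean share kept was 96.7% ± 4.71 (SD, n = 2) against 87.6% ± 3.61 in the genome. In the weakest quintile 2 of 11 were kept in both, a mean share of 27.3% against 23.9% in the genome. EVI1 kept 13 of 13 and 12 of 12 member sites of its 2 strongest quintiles in both dox libraries, and the mean shares kept in the genome were 99.7 and 96.0%.

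**Figure D3:**
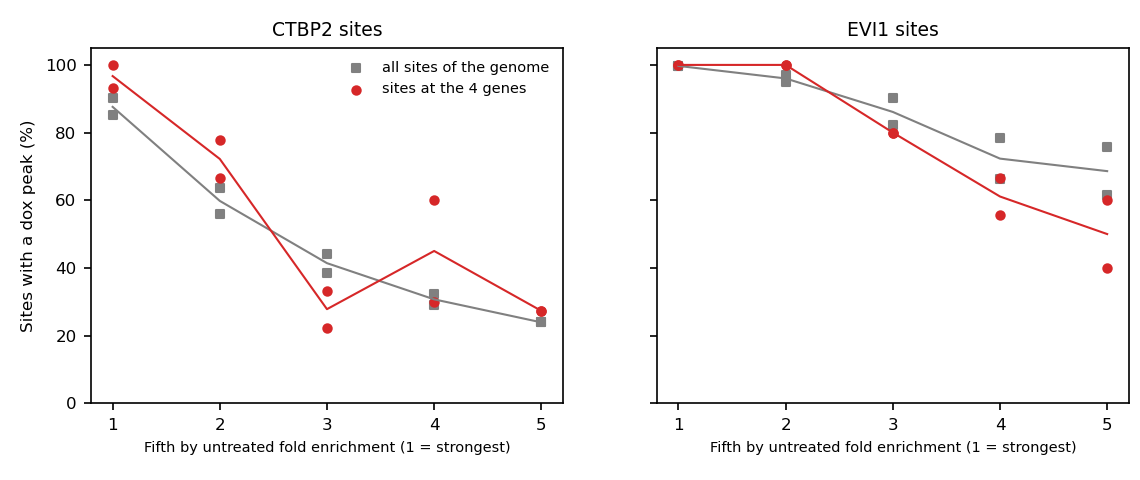
Share of sites with a peak in each dox library (points, with lines through the means of the 2 libraries), for quintiles of all CTBP2 or EVI1 sites by fold enrichment in untreated replicate 1, at the 4 genes (red) and over the genome (grey). The share kept is above 90% in the strongest quintile at the 4 genes for both proteins and, for CTBP2, near 27% in the weakest.

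Even where CTBP2 was kept, its fold enrichment was mostly lower with dox. Of the 27 sites kept in both, 21 had a lower fold in both dox libraries than in both untreated libraries (72.5% of kept sites in the genome), and 2 had a higher one (1.96% in the genome). The median ratio of mean dox to mean untreated fold was 0.520, with a range of 0.239 to 1.63. For EVI1, 16 of 39 kept sites had a lower fold in both dox libraries (35.3% in the genome) and 6 a higher one (13.4% in the genome), with a median ratio of 0.80. Fold depends on the depth and background of each library, which were not available, so these ratios compare lists and not amounts of bound protein.

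**Figure D4:**
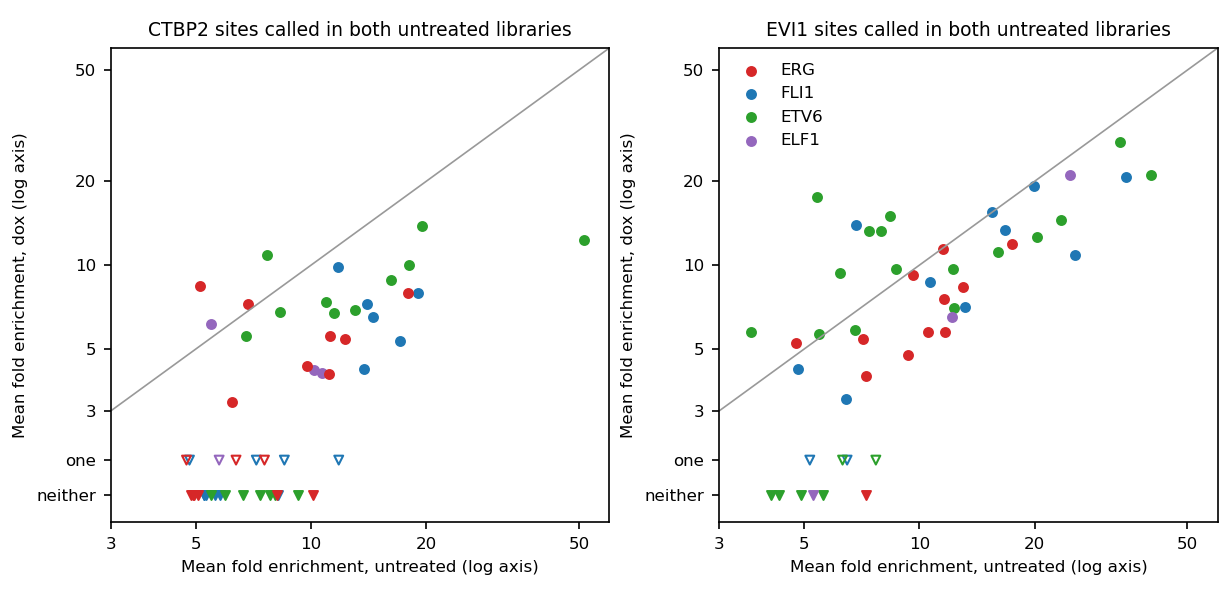
Mean fold enrichment of each site called in both untreated libraries, untreated against dox, on log axes, for CTBP2 (left) and EVI1 (right), coloured by gene, with the line of equal values. Triangles at the bottom are sites with a peak in one (open) or neither (filled) dox library. Kept CTBP2 sites lie below the line except for 4, and most CTBP2 sites without a dox peak had an untreated fold under 10.

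The sites called in all 13 lists show this with both proteins side by side. At ETV6-s30, CTBP2 had fold 51.1 and 52.1 untreated and 10.6 and 14.1 with dox, and EVI1 32.2 and 48.3 untreated and 26.3 and 15.7 with dox. Both proteins were lower with dox there, CTBP2 to 0.239 and EVI1 to 0.522 of the untreated mean. At FLI1-s16, the CTBP2 peak at the canonical start had fold 19.1 and 19.0 untreated and 8.58 and 7.36 with dox, and EVI1 32.0 and 37.3 against 22.5 and 18.8. At ETV6-s29, CTBP2 had 14.1 and 22.0 against 6.76 and 13.2, and EVI1 28.9 and 17.9 against 16.3 and 12.7. At these 3 sites neither protein's groups overlapped.

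At the other 3 of these sites only the CTBP2 groups were apart. At ELF1-s2, CTBP2 had fold 10.9 and 10.5 untreated and 4.01 and 4.19 with dox, while EVI1 had 18.5 and 30.9 untreated and 24.5 and 17.4 with dox. The CTBP2 summits of the 2 untreated libraries lay 871 bp apart there. At FLI1-s2, CTBP2 had 10.1 and 17.9 against 6.90 and 7.66, and EVI1 22.3 and 11.2 against 13.7 and 13.1. At ETV6-s25, CTBP2 had 21.6 and 17.3 against 11.9 and 15.8, and EVI1 25.2 and 41.6 against 32.4 and 22.7. Whether the 2 proteins differ in their ratio at a single site was not tested.

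The 2 CTBP2 sites of higher fold in both dox libraries are named for that. ETV6-s22 (chr12:11898700-11899568, intron 1) had CTBP2 folds of 4.77 and 10.6 untreated and 10.8 and 11 with dox, and its dox ranks were 964 and 1469. ERG-s26 (chr21:39848065-39849605, intron 1) holds a CTBP2 site with folds of 5.04 and 5.23 untreated and 7.69 and 9.08 with dox, next to another whose fold was lower with dox. At ERG-s21, the strongest ERG site in unmodified MUTZ3, the groups overlapped, with 6.03 and 7.64 untreated and 6.27 and 8.21 with dox.

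The EVI1 sites of higher fold in both dox libraries were all at ETV6, 6 of its 16 kept sites, and none of the 23 kept sites of ERG, FLI1 and ELF1 showed this. The largest ratio was at ETV6-s22, where EVI1 had 7.74 and 3.07 untreated and 13 and 22.0 with dox. ETV6-s24 had 8.90 and 7.87 against 15.0 and 15.1, and ETV6-s27 had 6.67 and 9.20 against 13 and 13.5. The remaining 3 had ratios of 1.51 to 1.79. They were picked from the values of the 39 sites, so the difference between the genes was not tested.

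Promoter sites of CTBP2 were few. Of 7 CTBP2 sites with an untreated summit within 1 kb of a protein-coding start, 5 were kept in both dox libraries. These were ERG-s5, ERG-s16, FLI1-s16, ETV6-s8 and ELF1-s2. The share was 71.4% (Wilson interval 35.9 to 91.8), and the interval covers the 43.0% of such sites in the genome. The kept promoter sites were also the stronger ones. Their CTBP2 folds in untreated replicate 1 were 10.9 to 19.1, against 5.96 at FLI1-s14 and 5.27 at FLI1-s35. Whether promoters were kept more often than other sites of like strength was not tested. FLI1-s14 and FLI1-s35 had no CTBP2 peak in either dox library, and EVI1 was called at both in both dox libraries. At FLI1-s14 the EVI1 fold was lower with dox, at 6.14 and 6.76 untreated and 3.92 and 2.71 with dox (ranks 45054 and 47079). At FLI1-s35 it was 5.02 and 4.60 untreated and 3.01 and 5.48 with dox (ranks 52114 and 25543). At the first ERG start, ERG-s5, CTBP2 had folds of 14.6 and 7.66 untreated and 5.27 and 2.84 with dox, while EVI1 had 8.80 and 14.3 untreated and 10.9 and 12 with dox. At ERG-s16, CTBP2 had 13.3 and 11.2 against 5.91 and 4.98, and EVI1 6.89 and 16.4 against 6.86 and 4.70. At the ETV6 promoter, ETV6-s8, CTBP2 had 14.6 and 8.33 against 7.0 and 6.50, and EVI1 10.9 and 21.2 against 13.2 and 9.07. The CTBP2 folds there belong to different summits, since the dox summits lay at least 1159 bp from the untreated ones, past the start. The EVI1 dox summits at ERG-s5 likewise lay at least 593 bp from the untreated ones. At the other kept sites the closest untreated and dox summits lay within 200 bp.

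Close to the first FLI1 start, a run of CTBP2 sites had no dox peak. FLI1-s12, FLI1-s13 and FLI1-s14, which lie 2.38, 1.36 and 0.403 kb before that start, were all called in both untreated libraries and in neither dox library. Over the genome, 41.0% of CTBP2 sites were kept in neither dox library. Further upstream, FLI1-s8 and FLI1-s2 were kept in both, with CTBP2 dox folds of 4.86 and 5.85 and of 6.90 and 7.66. FLI1-s13 (chr11:128554853-128555539) was the strongest FLI1 site without a dox peak, with CTBP2 folds of 10.7 and 5.70 untreated. EVI1 was called at FLI1-s13 in 1 dox library (3.65). At ERG the strongest CTBP2 site without a dox peak was ERG-s37 (chr21:39758864-39759367, intron 9), with folds of 11.6 and 8.67 untreated. EVI1 stayed called there, with 4.96 and 16.1 untreated and 5.85 and 5.67 with dox. At ETV6 it was ETV6-s20 (chr12:11887111-11887480, intron 1), with 8.68 and 6.0 untreated, and at ELF1 there was none.

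No CTBP2 site at the 4 genes was called in both dox libraries and no untreated library, among 32 sites called in both dox libraries (0.960% in the genome). EVI1 had 2 such sites among 51 (4.22% in the genome), both at FLI1. FLI1-s5, 22.0 kb upstream, had EVI1 folds of 4.58 and 4.98, and FLI1-s25 in intron 1 had 3.43 and 3.98, all of them weak.

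The other 24 ETS genes were treated in the same windows for comparison. Per 100 kb of window, FLI1 held 5.73 CTBP2 peaks of unmodified MUTZ3, which is at the 98.3 percentile of all protein-coding genes and above each other ETS gene in that list. ERG held 3.14 (90.2 percentile), ETV6 2.89 (88.5) and ELF1 1.74 (74.1), and the median over all genes was 0.776. These densities count peaks, and of the 13 peaks at FLI1, 5 lay in the merged site FLI1-s16 and 2 in FLI1-s26. Densities of merged sites in this list were not compared. For EVI1 in unmodified MUTZ3 the densities were 4.41 at FLI1, 2.31 at ETV6, 2.1 at ERG and 1.74 at ELF1, with a median of 0.984 over all genes. FLI1 was at the 89.1 percentile for EVI1, below ERF (6.51), SPI1 (5.66) and ETV3L (4.98). In MOLM1, CTBP2 was denser at ERF (19.5) than at FLI1 (13.7). CTBP2 sites called in both untreated libraries were denser at ERF (13.9), ETV7 (9.72), ETV3 (8.53), SPI1 (8.08) and SPIB (8.01) than at FLI1 (7.06), so of these CTBP2 measures FLI1 came first in the unmodified list only. Among the other 24 genes ERF, a repressor of the family, had the most CTBP2 and EVI1 sites called in both untreated libraries, at 15 and 19, and SPIC had none of either. Summed over their windows, the 24 genes had 135 CTBP2 sites, of which 47 were kept in both dox libraries (34.8%) and 54 in neither (40.0%). For EVI1 the sum was 139 sites, of which 121 were kept in both (87.1%). Any site shared by overlapping windows is counted at each gene in these sums.

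**Figure D5:**
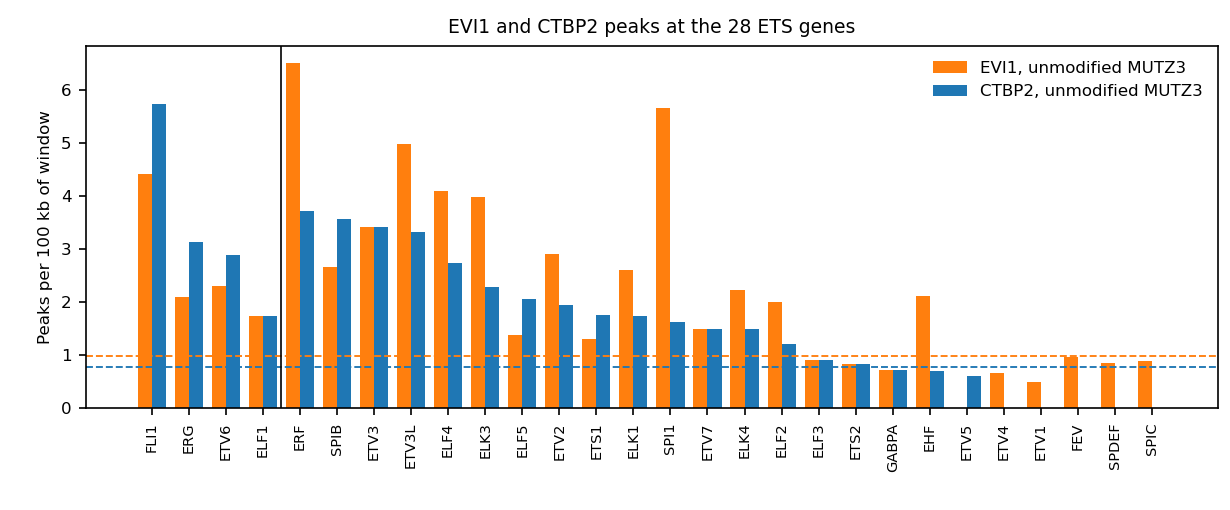
Peaks per 100 kb of window in unmodified MUTZ3 for EVI1 (orange) and CTBP2 (blue) at the ETS genes, the 4 described here to the left of the line. Dashed lines are the medians over all protein-coding genes, 0.984 for EVI1 and 0.776 for CTBP2, and FLI1 has the tallest CTBP2 bar, at 5.73.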

How the data were processed

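ChIP-seq peak lists of EVI1 and CTBP2 from 13 libraries were used, each called separately against input. The authors aligned reads to hg19 with Bowtie 1.1.1 and called peaks with MACS2 2.1.2. The 2 dox and the 2 untreated libraries of both targets share 1 input for each arm. The deposited columns used were fold enrichment, a linear ratio over background, and -log10 p and q. The deposited score column was not used. The lists hold no read counts, so depth is unknown and the precision it gives cannot be stated.

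Peaks were assigned to the GENCODE gene record (GRCh37) plus 50 kb either side and merged into sites at an overlap of at least 1 bp, with Python 3.11.15, numpy 2.4.6, pandas 2.3.3, scipy 1.17.1 and matplotlib 3.10.9. A site was placed by the summit of its highest-ranked peak. Sites were named when they were promoter sites in 2 or more lists, the best of a gene in an unmodified MUTZ3 or MOLM1 list, in all 13 lists, the strongest CTBP2 site of a gene without a dox peak, or called in both dox and no untreated library. Other sites are said to be named for their values. Members and lists were chosen with earlier results of these data known. Groups came from the sample labels. Peak numbers and kept shares were compared with exact two-sided permutation tests over libraries, 2 against 2, where the smallest p is 0.333, and these p-values measure only the spread between libraries. Wilson 95% intervals cover counting error only. Alternatives were a -log10 q of at least 5, flanks of 10 kb, an overlap of 50%, lists of equal size, sites of either untreated library, a replicate block, and each library left out. The overlap and count steps were tested on simulated data. Expression, and promoter sequences of another build, were not used here. The sequence of 1 shared site is not reported here.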

Additional observations from a re-analysis of the deposited data

Results flagged for a closer look

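At FLI1 the 2 proteins had opposite directions with dox in every library. The log2 ratio of mean dox to mean untreated peak numbers was -1.09 for CTBP2 and 0.28 for EVI1. The difference between the proteins was not tested. The EVI1 direction was the opposite, at -0.09, among peaks with a -log10 q of at least 5. The CTBP2 value was 0.13 in lists of equal size, which cannot show a loss common to the whole list.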

How the results depend on the processing

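The ratio of CTBP2 peak numbers at the 4 genes changed when the lists were cut to equal size, a cut that removes any loss common to the whole list. With lists of equal size the log2 ratio of dox to untreated was 0.09 for CTBP2 and 0.06 for EVI1, and 0.14 for EVI1 at ERG and 0.13 for CTBP2 at FLI1. EVI1 at FLI1 was -0.09 at a -log10 q of at least 5. The CTBP2 share kept was 78.6% with lists of equal size and 33.5% over sites of either untreated library, where the EVI1 share was 64.3%. EVI1 exceeded CTBP2 under each alternative run, by 7.48 points with lists of equal size. Leaving out 1 library at a time gave log2 ratios of -1.02 to -0.95 for CTBP2 and -0.24 to -0.01 for EVI1. Kept shares ran from 40.5 to 61.1% and from 68.2 to 85.7%, and differences from 10.8 to 43.2 points. Where an untreated library was left out, the kept share was taken over all peaks of the other, not over sites called in both. Without 1 of the 4xPLASS libraries the other gave 15 or 50 peaks, which are likewise not sites called in both. EVI1 at ERG ran from -0.37 to 0.09, the latter without untreated replicate 2. The cause of these shifts was not tested.

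With a replicate block by number the log2 ratios were -0.98 and -0.13, the kept shares 41.9 and 71.2%, and the difference 29.3 points. These kept shares were also taken over all peaks of single untreated lists. The labels only number the libraries, and the numbers were not shown to pair them. No test could pass a threshold of 0.05 with 2 libraries an arm.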
